A study of Mus musculus with 2 samples.

Results

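Endoplasmic reticulum (ER) secretion and stress genes were followed through eYFP+ cells of perigonadal white adipose tissue (gWAT). The set held 39 genes, chosen by symbol as chaperones, folding enzymes, stress factors, degradation factors and parts of the protein entry machinery of the ER. All 39 symbols were found among the 32285 gene IDs of the tables, on 40 IDs, because Ddit3 is carried by a pair of overlapping IDs on chromosome 10. All Ddit3 counts lay on 1 of these, ENSMUSG00000025408, and the other was at 0 in both libraries.

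Cells came from the stromovascular fraction (SVF), the gWAT cells left after adipocytes are spun away. Both groups were male mice of the genotype Cyp1a1Cre x R26LSL-eYFP, in which Cre under the Cyp1a1 promoter permanently labels cells that have activated this target gene of the aryl hydrocarbon receptor. The groups ate purified diets for 12 weeks, either D12450J with 10% fat (low-fat diet, LFD) or D12492 with 60% fat (high-fat diet, HFD). All were injected with the receptor ligand FICZ at 10 mg/kg, 5 days before the tissue was taken, so no group lacked ligand. Live eYFP+ cells were sorted, which leaves out cells that never switched the reporter on, and 1 library of pooled mice was made per diet. The strain background and age were not given in the labels.

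The ER is where proteins bound for the cell surface or for secretion are made and folded. They are threaded in through a translocon, lose their signal peptide, and are folded by chaperones and by enzymes that form disulfide bonds. When unfolded protein accumulates, sensors in the ER membrane set off the unfolded protein response, which raises chaperones, folding enzymes and the factors of ER-associated degradation (ERAD). Plasma cells secrete antibody and are known for a greatly expanded ER, whereas stromal cells of fat tissue secrete collagens and other matrix proteins.

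Part of this response acts through short promoter sequences. The ER stress element (ERSE, CCAAT then 9 bases then CCACG) and the shorter ERSE-II (ATTGG, 1 base, CCACG) were searched on both strands of the 250 bases before each RefSeq start (GRCm38.p6). A window was given for 30 of the 39 genes. ERSE was found in 8 of these 30, Hspa5, Hsp90b1, Calr, Canx, Dnajc3, Creld2, Pdia6 and Derl3, against 35 of 27025 symbols in all (0.130%). ERSE-II was found in Herpud1 alone, against 10 of all symbols (0.0370%). The genes were compiled as ER stress genes, so this is a description of the set. A second element bound by stress factors, UPRE (TGACG directly before TGG), was present in Txndc5 and in 0.603% of all symbols, and the amino acid response element CARE (TGATG, 1 base, AAT) was present in none of the 30 windows and in 0.910% of all symbols. No 2 of these matches overlapped.

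The stretches around the element are shown for genes whose levels across cell types are described next. Capitals mark the element as it reads on the gene's own strand, so an element on the opposite strand begins with CGTGG and ends with ATTGG. Hspa5 has its stretch at chr2:34772005-34772063 (+ strand), with the first base of the element 65 bases before the start.
Hspa5: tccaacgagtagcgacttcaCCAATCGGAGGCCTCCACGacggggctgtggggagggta
Hsp90b1 has its stretch at chr10:86705618-86705676 (- strand) and held a further copy nearer the start, on the opposite strand.
Hsp90b1: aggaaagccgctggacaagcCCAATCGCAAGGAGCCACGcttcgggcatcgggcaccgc
Creld2 has its stretch at chr15:88819500-88819558 (+ strand).
Creld2: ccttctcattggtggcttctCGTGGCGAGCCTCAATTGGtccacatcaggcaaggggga
Derl3 has its stretch at chr10:75893222-75893280 (+ strand).
Derl3: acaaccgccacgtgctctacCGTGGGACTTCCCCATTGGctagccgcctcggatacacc
Canx has its stretch at chr11:50325780-50325838 (- strand) and is shown because it carries the element but had no higher CPM in plasma cell-like than in APC-like cells.
Canx: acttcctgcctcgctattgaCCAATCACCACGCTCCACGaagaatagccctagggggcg
Herpud1 has its stretch at chr8:94386357-94386407 (+ strand) and carries the shorter element.
Herpud1: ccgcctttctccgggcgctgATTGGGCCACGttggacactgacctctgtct

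After filtering and removal of doublets, 9294 LFD and 7879 HFD cells were used, with medians of 10223 and 12722 unique molecular identifiers (UMIs, each standing for 1 captured RNA molecule) per cell. Cells were clustered without the 39 genes and named from marker genes, so the ending -like marks a name that has no other support. All 12 plasma cell markers had a UMI in at least 10% of the plasma cell-like cells of each library. The libraries shared 27 cell barcodes, under 0.3% of either. Levels are given as CPM, the UMIs of a gene per 1000000 UMIs, summed over the cells of a type. With 1 library per diet no test was possible, so intervals are exact 95% intervals that cover counting error only, and a difference between the diets cannot be told apart from a difference between 2 libraries.

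Plasma cell-like cells numbered 390 in LFD and 1375 in HFD. The cells that secrete matrix were represented by APC-like cells (adipocyte progenitor cell-like, 215 and 580), mesothelial-like cells (1824 and 1612), and the largest stromal cluster (2988 and 1264), which held markers of both and is called unresolved stromal. The mesothelial-like cells also held APC markers, 10 of 14 with a UMI in at least 10% of cells, so the stromal names are less certain than the plasma cell name. Immunoglobulin genes made up 28.2% of plasma cell-like UMIs in LFD and 34.97% in HFD. Collagen genes made up 6.22% and 6.52% of APC-like UMIs and 0.0418% and 0.0257% of plasma cell-like UMIs.

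The 39 genes took a larger share of RNA in plasma cell-like cells than in any other type. They made up 3.53% of plasma cell-like UMIs in LFD (exact interval 3.51 to 3.54) and 3.42% in HFD (3.41 to 3.43). The corresponding shares were 1.13% and 1.04% in APC-like cells, 1.17% and 1.10% in mesothelial-like cells and 1.05% and 1.07% in unresolved stromal cells. A cycling stromal cluster was the next highest type, at 1.252% and 1.12%. B-like cells, the lineage from which plasma cells arise, were at 0.624% and 0.616%. Stromal types thus lay between plasma cell-like cells and the endothelial-like and macrophage-like cells, which ranged from 0.593% to 0.707%.

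The same order held cell by cell. In LFD the quartiles of plasma cell-like cells were 2.81% and 3.95%, with a median of 3.33%, and in HFD 2.89% and 3.83%, with a median of 3.35%. The quartiles of APC-like cells were 0.864% and 1.252% in LFD and 0.852% and 1.15% in HFD, so these ranges did not overlap those of the plasma cell-like cells. With immunoglobulin genes left out of the total, the plasma cell-like median was 4.78% in LFD and 5.33% in HFD. Per cell, plasma cell-like cells held on average 461 UMIs of the set in LFD and 511 in HFD, against 120 and 108 in APC-like cells.

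**Figure D1:**
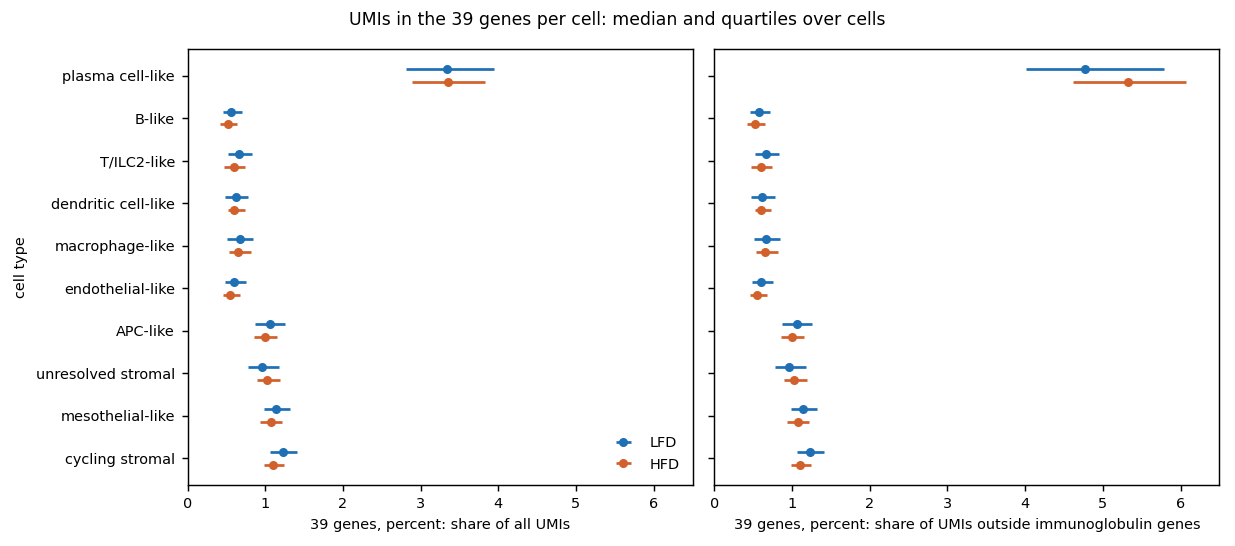
Percent of a cell's UMIs in the 39 genes (x axis) by cell type (y axis) in the LFD and HFD libraries, of all UMIs (left) and of UMIs outside immunoglobulin genes (right). Points are medians over cells and bars run from the first to the third quartile. Plasma cell-like cells stand at 3.33% and 3.35% in the left panel, above every other type shown.

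Gene by gene, 33 of the 39 were highest in plasma cell-like cells in LFD and 30 in HFD, among the types with at least 50 cells. The share of all genes that were highest there was not counted, so these counts describe the set only. The 30 of HFD were all among the 33 of LFD. The exceptions lay at both ends. These ranks are of CPM, and immunoglobulin genes took 28.2% and 34.97% of plasma cell-like UMIs in LFD and HFD, which lowers every other gene there. Ranks without immunoglobulin genes were not taken. Srp14, an SRP subunit, was lowest of all types in plasma cell-like cells in both libraries, at 158 and 139 CPM, although in LFD its interval overlapped that of B-like cells at 164 CPM. Ddit3 was lowest there in HFD, at 18.4 CPM, next to cycling stromal cells at 19.0 CPM with an overlapping interval. Canx was highest in macrophage-like cells, at 357 and 367 CPM. Ssr1 and Ssr3, subunits of the TRAP complex beside the translocon, were highest in the cycling stromal cluster, Ssr1 at 231 against 210 CPM in LFD and at 235 against 230 CPM in HFD, where the intervals overlapped. Pdia3 was highest in APC-like cells in LFD and in mesothelial-like cells in HFD. Ddit3, and in HFD also Dnajb9 and Atf4, were highest in neutrophil-like cells, on 10 to 36 counts each in HFD. Herpud1 was highest in HFD in dendritic cell-like cells, at 443 CPM against 301 in plasma cell-like cells, and in LFD these types stood at 381 and 416 CPM with overlapping intervals.

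**Figure D2:**
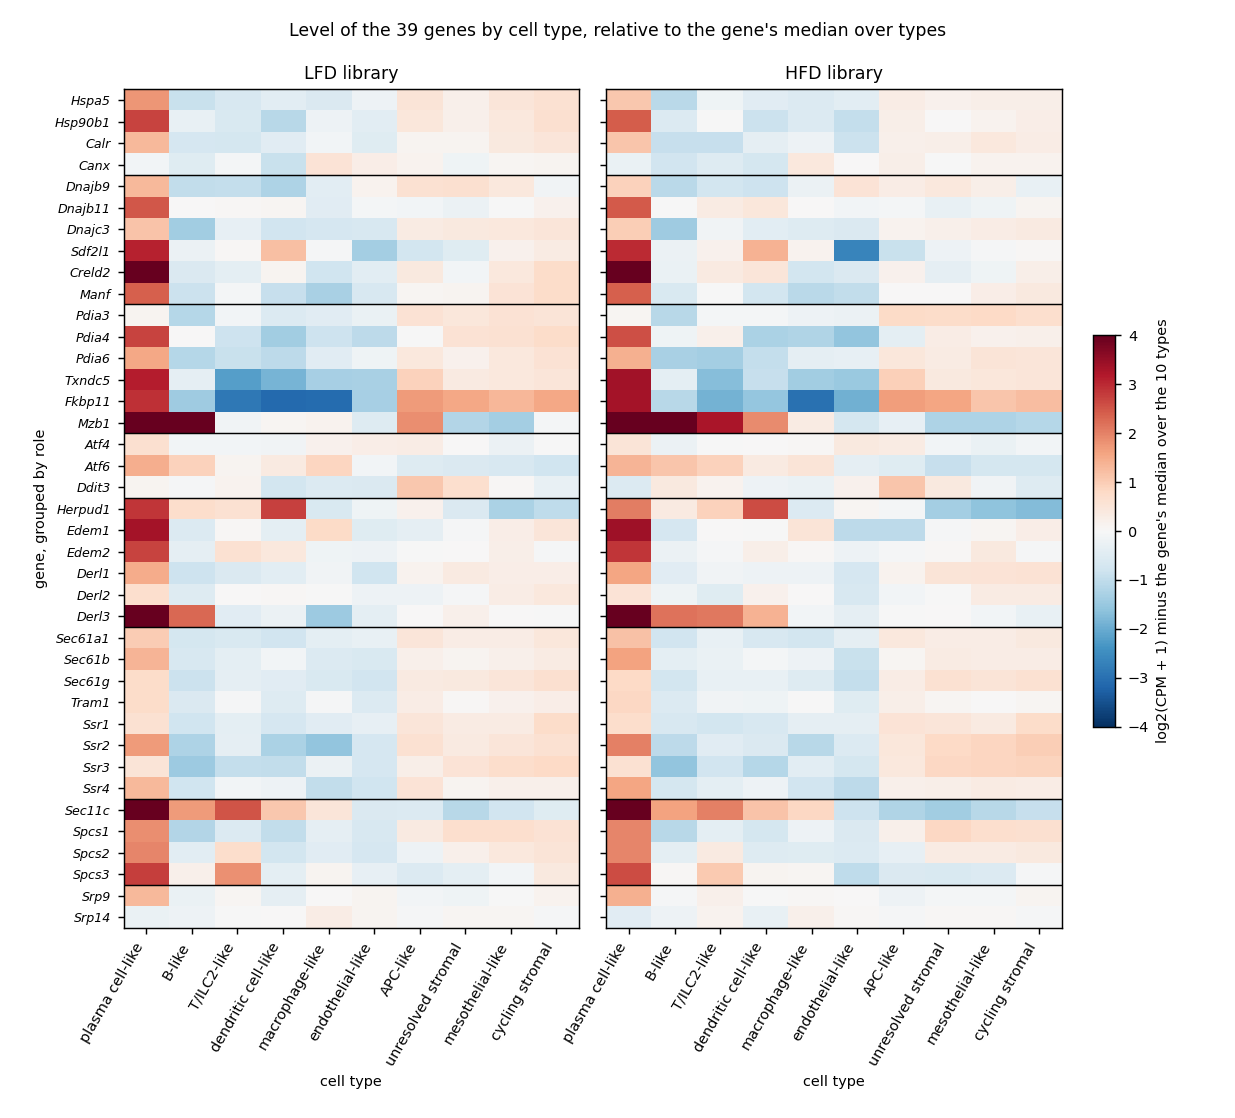
Levels of the 39 genes (rows, grouped by role with lines between the groups) in 10 cell types (columns) of the LFD and HFD libraries. Colour is log2(CPM + 1) minus the gene's median over the 10 types and is capped at the ends of the colour bar. The plasma cell-like column is red for most rows, Canx, Pdia3, Ddit3 and Srp14 excepted, and Fkbp11 and Txndc5 are also above their median in the stromal columns.

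Next, plasma cell-like cells were set against each secretory stromal type within each library. A gene was counted as higher or lower when its CPM differed at least 2-fold in the same direction in both libraries. Against APC-like cells 22 of the 39 were higher and 0 lower, while 12% of 13050 genes were higher and 40.5% lower. Against mesothelial-like cells 23 were higher and 0 lower (all genes, 10.4% and 44.1%). Against unresolved stromal cells 24 were higher and 0 lower (10.5% and 43.7%). Against B-like cells 33 were higher and 0 lower (7.07% and 29.6%).

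CPM are shares of a total, and a large share of immunoglobulin RNA leaves less for every other gene. The median gene was at 0.639 of its APC-like level in LFD and 0.573 in HFD, whereas the median of the 39 genes was at 2.40 and 2.98. Relative to that median gene, 38 of the 39 stood higher in plasma cell-like cells in each library, Ddit3 being the exception. With immunoglobulin genes left out of the totals, 30 of the 39 were at least 2-fold higher than in APC-like cells and 0 lower, against 18.1% and 31.7% of all genes. The ratios of the 39 genes were alike in the libraries (Pearson r = 0.983 across genes for APC-like cells, genes not being independent replicates).

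**Figure D3:**
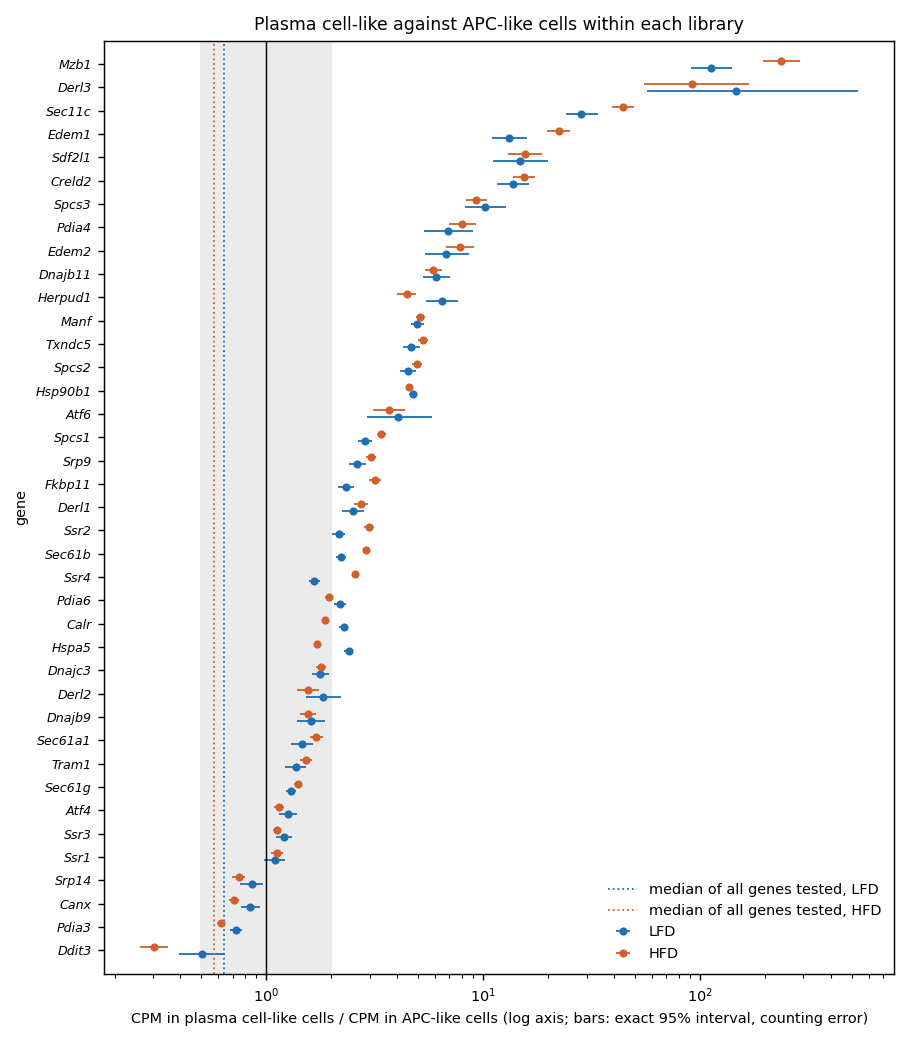
Ratio of CPM in plasma cell-like to CPM in APC-like cells (x axis, log scale) for each of the 39 genes (y axis), in LFD and HFD. Bars are exact 95% intervals for counting error, the grey band is 0.5 to 2, and dotted lines are the median of all genes tested, 0.639 in LFD and 0.573 in HFD. The points run from below 1 for Ddit3, Pdia3, Canx and Srp14 to above 90 for Mzb1 and Derl3.

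The abundant chaperones differed among themselves. Hsp90b1, the ER member of the Hsp90 family, reached 4887 CPM in LFD and 4928 in HFD in plasma cell-like cells, compared with 1029 and 1083 in APC-like cells. Its ratio was 4.75 (4.55 to 4.96) in LFD and 4.55 (4.44 to 4.66) in HFD. Hspa5, which encodes BiP, the ER Hsp70 that binds unfolded chains and holds the stress sensors in check, was at 2214 and 1497 CPM against 921 and 875, a ratio of 2.40 in LFD and 1.71 in HFD. On the CPM scale Hspa5 therefore passed 2-fold in LFD alone. Calr, a lectin chaperone of the ER lumen, gave the same picture with ratios of 2.28 and 1.87. Its membrane-bound relative Canx was slightly lower in CPM in plasma cell-like cells, at 224 and 228 CPM against 265 and 321. The calnexin partner Pdia3, which forms disulfide bonds on glycoproteins, was lower too, at 512 and 450 CPM against 708 and 729 (ratios 0.724 and 0.617). Canx and Pdia3 both stood above the median gene, which was at 0.639 and 0.573 of its APC-like level.

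Co-chaperones and the secreted ER stress factors differed from APC-like cells either strongly or weakly. Creld2, a stress-induced ER protein, was at 842 and 787 CPM against 61.3 and 51.0, ratios of 13.7 and 15.4. Sdf2l1, a partner of BiP complexes, was at 329 and 330 CPM against 22.3 and 21.2, ratios of 14.7 and 15.6. The BiP co-chaperone Dnajb11 was 6.08 and 5.88 times its APC-like level, and Manf, a secreted and BiP-binding stress protein, 4.98 and 5.14 times. In contrast, the co-chaperones Dnajb9 (1.61 and 1.55) and Dnajc3 (1.78 and 1.79) stayed under 2-fold in CPM against APC-like cells. They were 4.11 to 5.93 times higher than in B-like cells.

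Among the isomerases, Pdia4 was at 192 and 263 CPM against 28.0 and 32.8, ratios of 6.86 and 8.01. Txndc5, a thioredoxin-domain disulfide isomerase, was at 1057 and 1484 CPM against 226 and 281 in APC-like cells, ratios of 4.68 and 5.28. Fkbp11, a prolyl isomerase of secretory tissues, was at 652 and 569 CPM against 280 and 179, ratios of 2.33 and 3.18. In macrophage-like cells Fkbp11 was at 9.17 and 6.17 CPM and Txndc5 at 46.7 and 54.6 CPM, below all 4 stromal types. Pdia6 was close to 2-fold, with ratios of 2.20 and 1.94.

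Mzb1 is an ER protein of marginal zone B cells and plasma cells that assists antibody assembly. Plasma cell-like cells held 4252 CPM in LFD and 4274 in HFD, and B-like cells 356 and 384 CPM, a ratio of 11.9 and 11.1. After thinning each cell to 2000 UMIs, 99.2% and 99.6% of plasma cell-like and 42.6% and 40.5% of B-like cells had an Mzb1 UMI. In mesothelial-like cells it was at 3.22 and 9.31 CPM, with a UMI in 0.549% and 1.06% of thinned cells. If all Jchain RNA in mesothelial-like cells came from free plasma cell RNA, the same source would carry 4.63 and 16.7 CPM of Mzb1, so these levels were no higher than that background. Mzb1 was one of the genes leading the plasma cell-like clusters, and its level there is part of their description.

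Of the 6 ERAD genes 5 were at least 2-fold higher in plasma cell-like than in APC-like cells in both libraries and 0 lower, against 12% and 40.5% of all genes. Derl3, a channel subunit of the derlin family, was at 257 and 214 CPM in plasma cell-like cells, with 4 and 14 counts in all APC-like cells, so the ratios of 146 (57.1 to 538) and 92.3 (54.9 to 169) are wide. These counts are 1.75 and 2.32 CPM, with exact intervals of 0.478 to 4.49 and 1.27 to 3.89. Free plasma cell RNA scaled by Jchain as for Mzb1 would carry 2.61 and 1.31 CPM of Derl3, inside those intervals. In LFD 78 of the 86 Mzb1 counts of APC-like cells lay in 3 cells, and whether their Jchain was free RNA was not tested. In B-like cells it was at 12.4 and 13.9 CPM. Its relatives were far less different. Derl1 gave ratios of 2.51 and 2.73 and Derl2 of 1.83 and 1.55. Edem1, a lectin that hands misfolded glycoproteins to degradation, was at 701 and 964 CPM against 53.0 and 43.2, ratios of 13.2 and 22.3, and Edem2, which trims their mannose residues, gave 6.78 and 7.81. Herpud1, a stress-induced scaffold of the degradation complex, was at 416 and 301 CPM against 64.4 and 67.8, ratios of 6.46 and 4.44, and its ratio to mesothelial-like cells was larger, at 18.01 and 13.1.

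The parts of the entry machinery differed in their CPM ratios. All 4 signal peptidase genes were more than 2-fold higher in plasma cell-like than in APC-like cells, against 12% of all genes. Sec11c, a catalytic subunit, was at 1819 and 2071 CPM against 64.0 and 47.1, ratios of 28.4 and 44.0, whereas Sec11a, the other catalytic subunit, gave ratios of 0.795 and 0.577. In T/ILC2-like cells Sec11c was at 543 and 453 CPM, the second highest type. The accessory subunits Spcs3, Spcs2 and Spcs1 gave 10.2 and 9.32, 4.50 and 4.96, and 2.86 and 3.39. Of the 8 translocon and TRAP genes only Sec61b (2.21 and 2.90) and Ssr2 (2.15 and 2.98) passed 2-fold in both libraries, against 12% of all genes. The pore subunit Sec61a1 was at 245 and 268 CPM against 168 and 158, and the ratios were 1.09 and 1.12 for Ssr1 and 1.21 and 1.12 for Ssr3. All 8 were at least 2-fold higher than in B-like cells, against 7.07% of all genes. Of the SRP genes, which bring ribosomes to the ER, Srp9 was higher (2.63 and 3.05) and Srp14, its binding partner, was not (0.857 and 0.748). These ratios are of CPM. Without immunoglobulin genes the calls against APC-like cells rose from 22 to 30 of the 39, so genes near the limit depend on the scale.

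Of the 3 stress transcription factors 1, Atf6, was at least 2-fold higher in plasma cell-like than in APC-like cells and 0 were lower. Of all genes 12% were higher and 40.5% lower, and 3 genes are too few to set against that. Atf4, the effector of the PERK arm, was at 296 and 293 CPM in plasma cell-like and 235 and 255 in APC-like cells. Ddit3, which encodes the pro-apoptotic factor CHOP, was at 28.6 and 18.4 CPM against 56.5 and 60.5, ratios of 0.507 (0.397 to 0.647) and 0.304 (0.263 to 0.352). Ddit3 was thereby at the 2-fold limit in LFD and past it in HFD. The types also differed in 9 immediate early and heat shock genes, chosen as a sign of handling after values were seen, which summed to 1690 and 1233 CPM in plasma cell-like cells and to 8017 and 8310 CPM in APC-like cells, and their part in the Ddit3 and Atf4 values was not tested. Atf6, a membrane-bound stress sensor, was higher, at 69.6 and 89.9 CPM against 17.1 and 24.5, although in B-like cells it stood at 47.5 and 75.2, less than 2-fold lower.

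Other genes of the pathway were taken from 8 further lists, and their counts stand beside the 12% of all genes higher and 40.5% lower than in APC-like cells. Of 8 sensors and regulators, 1 was higher, a share near that of all genes, and 2 were lower than in APC-like cells. The higher gene was Xbp1, the spliced factor that drives ER expansion in plasma cells, at 1865 and 2038 CPM against 228 and 194 (ratios 8.17 and 10.5). The lower genes were Creb3l1, a factor linked to collagen secretion, at 5.10 and 5.79 CPM against 273 and 198, and the protease Mbtps1. Of 11 PERK-ATF4 targets, 3 were higher, among them Asns (9.10 and 7.36) and Psat1 (7.36 and 6.57), enzymes of amino acid synthesis, and 4 lower, among them Atf3 at 39.2 and 21.6 CPM against 153 and 228. Atf3 is also 1 of the 9 handling genes. Of 21 other folding enzymes, 7 were higher and 5 lower. Ero1lb, an oxidase that recharges disulfide isomerases, was at 137 and 197 CPM against 3.94 and 4.14, and Pdia5 was at 0.392 and 0.243 CPM against 71.4 and 48.9.

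Of 10 other ERAD genes 3 were higher and 0 lower, led by Ube2j1 (4.57 and 4.26), Syvn1 (3.81 and 4.99) and Sel1l (2.77 and 3.17). Of 12 oligosaccharyltransferase genes, which add glycans, 3 were higher and 1 lower, Tusc3 at 13.7 and 14.6 CPM against 88.5 and 97.8. Of 12 other translocation genes 3 were higher and 1 lower. Of 22 genes of ER exit and return 3 were higher, also a share near that of all genes, and 5 lower, Kdelr3 being the lowest at 13.5 and 18.6 CPM against 152 and 137. All 16 collagen folding enzymes were lower. Serpinh1, the collagen chaperone Hsp47, was at 21.2 and 10.2 CPM against 2380 and 2088, and Plod3, a collagen lysyl hydroxylase, at 11.4 and 12.7 against 81.1 and 59.8.

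Within plasma cell-like cells, HFD was then set against LFD, with a limit of 1.5-fold and an interval on the same side of 1. Of the 39 genes 0 were higher and 1 was lower, while 2.71% of 10815 genes were higher and 6.21% lower. The lower gene was Ddit3, with 146 counts in LFD and 378 in HFD, 28.6 against 18.4 CPM, a ratio of 0.642 (0.529 to 0.783). The median ratio of the 39 genes was 0.995 and that of all genes 0.932. Leaving immunoglobulin genes out of the totals moved these to 1.10 and 1.03 and made 3 genes higher and 0 lower, against 5.23% and 3.40% of all genes, so a call near the limit depended on the scale. Ddit3 also missed the limit with cells named one by one, with doublets kept and under a stricter cell filter. With doublets kept the class took in a cluster of 178 LFD and 138 HFD cells best matched by mesothelial markers.

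Below the limit, 2 groups of genes lay apart from 1 in opposite directions on both scales. Txndc5 was at 1057 CPM in LFD and 1484 in HFD (ratio 1.40), Edem1 at 701 and 964 (1.38), Pdia4 at 192 and 263 (1.37) and Spcs3 at 399 and 502 (1.26), and Txndc5, Edem1 and Pdia4 were the 3 genes past 1.5-fold without immunoglobulin genes (1.55, 1.52 and 1.51). Hspa5, at 2214 and 1497 CPM, had a ratio of 0.676 (0.662 to 0.691) and Herpud1, at 416 and 301 CPM, of 0.723 (0.688 to 0.760). Without immunoglobulin genes they were 0.747 and 0.798. Hsp90b1 (4887 and 4928 CPM), Mzb1 (4252 and 4274 CPM) and Sdf2l1 (329 and 330 CPM) differed by less than 2% in CPM between the libraries, but had ratios of 1.11 each without immunoglobulin genes.

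The Hspa5 levels of single cells differed most in their upper range. The 10th percentile of cells was at 508 CPM in LFD and 534 in HFD and the median at 1380 and 1190, whereas the 90th percentile was at 4293 and 2332. The tenth of cells with most Hspa5 UMIs held 44.3% of them in LFD and 33.6% in HFD. Herpud1 behaved alike, with medians of 242 and 240 CPM and 90th percentiles of 928 and 598. For Txndc5 the whole range was higher in HFD, with medians of 954 and 1416 CPM and 10th percentiles of 270 and 555. Edem1 did the same, with medians of 631 and 879 CPM. The sum of the 9 handling genes was 1690 CPM in LFD and 1233 in HFD, as given above, and its part in the Hspa5 and Herpud1 values was not tested. Fos, Jun, Junb, Atf3 and Dusp1 were lower in HFD, whereas Egr1, Ier2, Hspa1a and Hspa1b were higher. The median mitochondrial share was 3.38% and 3.29%.

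Over single plasma cell-like cells thinned to 5000 UMIs, the genes most like Hspa5 were Manf (Spearman rho = 0.514 in LFD and 0.490 in HFD) and Hsp90b1 (0.433 and 0.482), first and second in both libraries. Calr (0.331 and 0.416) came next in HFD, while in LFD Pdia3 (0.339) and Herpud1 (0.338) lay just above it. Herpud1 was at 0.149 in HFD. Txndc5 ran the other way, with -0.169 and -0.235. These are descriptions over 374 and 1335 cells that share their library, and genes with few UMIs per cell can only give low values.

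Plasma cell-like cells that were cycling were separated from the others by UMIs of at least 3 of 10 cycle genes, after thinning to 5000 UMIs. By this 188 of 374 cells in LFD and 528 of 1335 in HFD were cycling, while 66 and 223 cells held 2 or 3 of the genes and lay near the limit. Of the 39 genes 0 were higher and 0 lower by 1.5-fold in both libraries, with 18.8% and 2.12% of all genes higher and lower. The median ratio of cycling to other cells was 0.949 in LFD and 1.03 in HFD, with all genes at 1.251 and 1.26. Cycling cells had less immunoglobulin RNA, 24.2% against 33.9% of UMIs in LFD and 29.4% against 40.3% in HFD.

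Some single genes differed in the same direction in both libraries, short of the limit in at least 1. Txndc5 was lower in cycling cells, at 881 against 1303 CPM in LFD and 1163 against 1796 in HFD (ratios 0.676 and 0.648). Ssr4 gave 0.701 and 0.702, Mzb1 0.776 and 0.794, and Edem1 0.807 and 0.664. Derl2 (1.24 and 1.51), Canx (1.30 and 1.35) and Ssr1 (1.22 and 1.32) were higher. With immunoglobulin genes left out, 0 of the 39 genes were higher and 2, Txndc5 and Ssr4, were lower past the limit in both libraries, against 10.5% and 4.68% of all genes.

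On the CPM scale Hspa5 went in opposite directions, at 1901 CPM in cycling and 2624 in other cells in LFD (0.724, interval 0.698 to 0.752) but at 1590 and 1393 in HFD (1.14, 1.12 to 1.17). Without immunoglobulin genes it was lower in cycling cells of both libraries, by much less in HFD (0.631 in LFD and 0.965 in HFD). Read between the diets, Hspa5 in other plasma cell-like cells was at 2624 CPM in LFD and 1393 in HFD (ratio 0.531), and in cycling cells at 1901 and 1590, a ratio of 0.837. In the non-cycling cells 0 genes of the 39 were higher in HFD past 1.5-fold and 3 were lower, against 3.03% and 7.39% of all genes. The lower genes were Hspa5, Herpud1 (483 against 294 CPM, 0.608) and Ddit3 (34.2 against 18.1 CPM, 0.529). In the cycling cells 1 was higher, Pdia4 (166 against 261 CPM, 1.57), and 0 lower, against 2.97% and 4.31% of all genes. Hsp90b1 was lower in HFD in the non-cycling cells (0.864) and higher in the cycling cells (1.16). Without immunoglobulin genes the non-cycling ratios of Hspa5 and Ddit3 were 0.587 and 0.586, still past the limit, whereas Herpud1 at 0.673 just missed it and Txndc5 at 1.53 passed it.

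**Figure D4:**
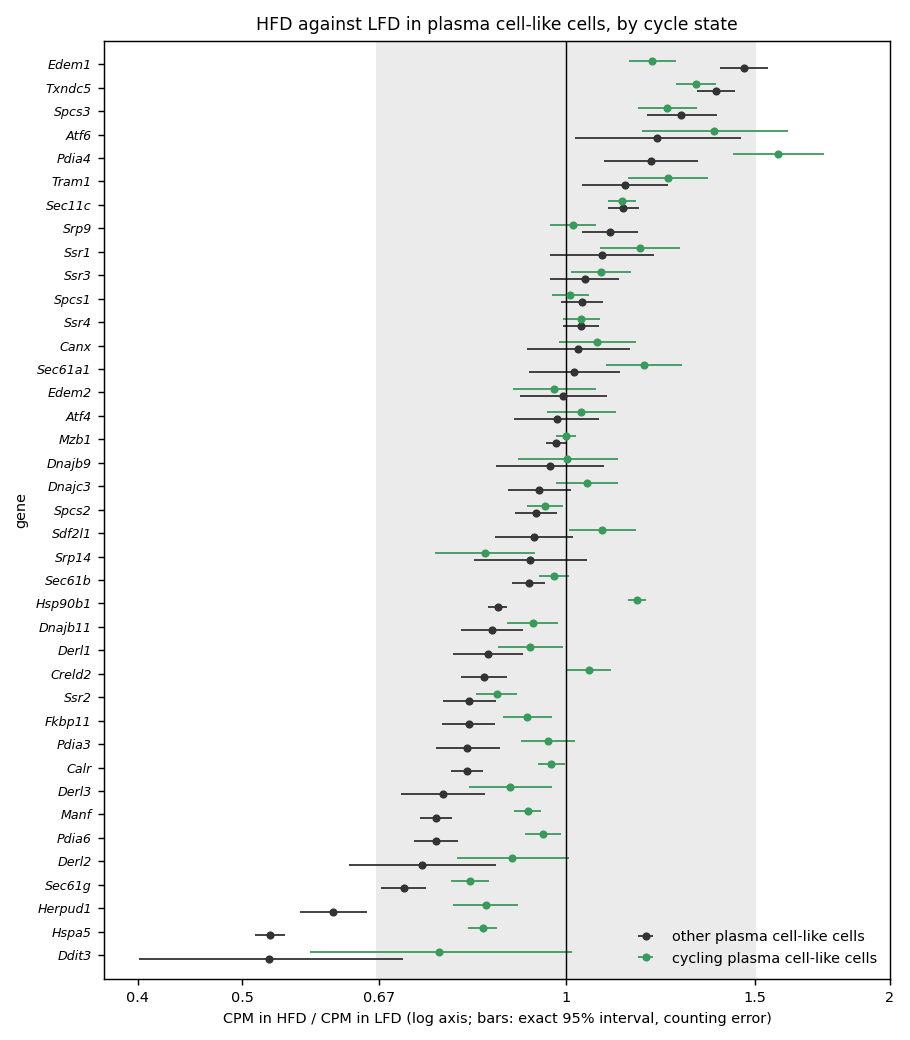
Ratio of CPM in HFD to CPM in LFD (x axis, log scale) for the 39 genes (y axis) in cycling and in other plasma cell-like cells. Bars are exact 95% intervals for counting error and the grey band is 0.67 to 1.5. Ddit3, Hspa5 and Herpud1 lie left of the band in the other cells, and Pdia4 lies right of it in the cycling cells.

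**Figure D5:**
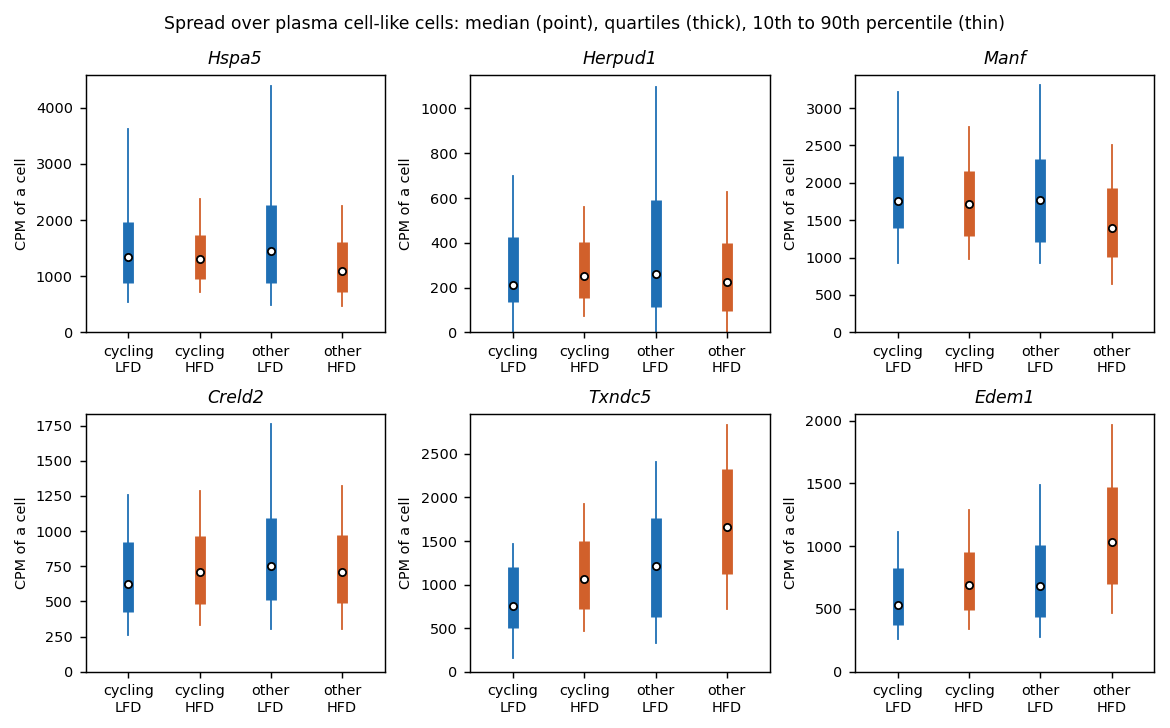
CPM of single plasma cell-like cells (y axis) for 6 of the genes, by cycle state and diet (x axis). The point is the median, the thick bar the quartiles and the thin line the 10th to 90th percentile. Hspa5 and Herpud1 have longer upper lines in LFD than in HFD, and Txndc5 and Edem1 have higher medians in HFD.

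In the stromal types HFD and LFD differed at few of the 39 genes. The unresolved stromal cells depended on the integration of the libraries. Without it 94.5% of them in LFD but 11.8% in HFD fell in APC-like clusters, and 5.29% and 87.8% in a mesothelial-like cluster, and whether their diet ratios compare like cells was not tested. In APC-like cells 0 were higher and 3 lower, with 11.9% and 4.61% of all genes higher and lower. In mesothelial-like cells 1 was higher and 2 lower (7.87% and 3.39%), in unresolved stromal cells 1 was higher and 0 lower (6.93% and 7%), and in the cycling stromal cluster 1 was higher and 1 lower (7.69% and 3.85%). The lower gene shared by APC-like, mesothelial-like and cycling stromal cells was Fkbp11. It was at 280 CPM in LFD and 179 in HFD in APC-like cells (0.639), 217 and 122 in mesothelial-like cells (0.564), 252 and 132 in cycling stromal cells (0.523), and 247 and 168 in unresolved stromal cells (0.680), where it missed the limit. In plasma cell-like cells it was at 652 and 569 CPM (0.874). Ssr2 was lower in APC-like cells, at 393 and 234 CPM (0.597), but missed the limit with cells named one by one (0.816). Without integration of the libraries neither Fkbp11 (0.725) nor Ssr2 (0.718) passed it in APC-like cells. Creld2 was lower in mesothelial-like cells, at 62.9 and 39.5 CPM (0.628). The higher gene of the cycling stromal cluster was Atf6, at 13.7 and 20.98 CPM (1.53). Marker sums also shifted between LFD and HFD. Mesothelial markers summed to 1250 and 1951 CPM in mesothelial-like and 779 and 1381 in cycling stromal cells. In APC-like cells macrophage markers summed to 114 and 34.0 CPM and neutrophil markers to 104 and 5.80. The part of these shifts in the values above was not tested.

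Mzb1 was the remaining gene in these counts, lower in APC-like and higher in mesothelial-like and unresolved stromal cells, at 37.7 against 18.1, 3.22 against 9.31 and 3.77 against 9.27 CPM in LFD and HFD. In cycling stromal cells it was at 9.26 and 9.83 CPM, and 109 of the 143 counts in LFD lay in 3 cells. In APC-like cells of LFD, 78 of 86 Mzb1 counts lay in 3 cells, whereas in mesothelial-like cells of LFD 83 counts lay in 82 cells. After cells with at least 2% immunoglobulin UMIs had been left out, a step added with these values known, the APC-like levels were 4.45 and 6.17 CPM. The mesothelial-like levels were then 3.22 and 6.06 CPM and the unresolved stromal levels 2.98 and 6.05 CPM, still past the limit in both types. The cycling stromal levels became 2.28 and 6.65 CPM, which made Mzb1 a further gene past the limit there. The plasma cell-like share of all cells was 4.196% in LFD and 17.5% in HFD, and the part of free plasma cell RNA in the stromal Mzb1 levels was not tested beyond the Jchain values above.

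In the other types, B-like cells had 1 gene higher and 0 lower (7% and 4.79% of all genes), Atf6 at 47.5 and 75.2 CPM (1.58). Macrophage-like cells had 1 higher, Mzb1, and 0 lower (6.35% and 3.94%). In HFD 62 of their 100 Mzb1 counts lay in 3 cells, and without cells at 2% or more immunoglobulin UMIs Mzb1 was at 10.8 CPM in LFD and 12.4 in HFD, with 0 genes higher and 1, Fkbp11, lower, against 6.27% and 3.86% of all genes. With all cells Fkbp11 had 23 and 21 counts and a ratio of 0.673 (0.354 to 1.27), so this call rests on few counts. Endothelial-like cells had 4 higher and 6 lower (15% and 6.6%). Their higher genes were Dnajb9 at 72.4 and 121 CPM (1.67), Herpud1 at 49.8 and 76.7 (1.54), Ddit3 at 17.4 and 30.7 (1.77) and Mzb1. Their lower genes included Fkbp11 (0.429), Sdf2l1 (0.397, from 54 and 14 counts), Manf at 244 and 160 CPM (0.654), and the translocon subunits Sec61b (0.644) and Sec61g (0.642). The same handling genes summed to 4159 CPM in LFD and 6659 in HFD endothelial-like cells. The 10 cycle markers summed to 830 and 356 CPM there, 8 and 0 of them with a UMI in at least 10% of cells, the 9 mural cell markers to 64.2 and 234 CPM, and the 12 plasma cell markers to 429 and 1507 CPM. The part of these shifts in the values above was not tested.

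T/ILC2-like cells had 7 higher and 4 lower (10.2% and 4.94%). In HFD 183 of their 192 Mzb1 counts lay in 3 of 228 cells. Without cells at 2% or more immunoglobulin UMIs, which removed 1 cell in HFD and 0 in LFD, 1 gene was higher, Atf6, and 5 were lower, against 10.2% and 4.94% of all genes without that cell, so Hsp90b1, Hspa5, Pdia4, Herpud1, Creld2 and Mzb1 were called only with that cell. Mzb1 was then at 8.84 and 16.0 CPM, a ratio of 1.81 whose interval, from 9 and 13 counts, ran from 0.715 to 4.79.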

How the data were processed

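The deposited tables hold raw UMI counts per gene and cell, made by the authors from 10x 3' libraries with Cell Ranger 4.0.0 (mm10), per the submitters' processing notes, which also name bcl2fastq 2.17.1.14, STAR and Seurat 4.1.0. Reads were not analysed here. Total counts were 114311020 in LFD and 119498750 in HFD.

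Cells with 500 to 40000 UMIs, at least 100 genes and under 12.5% mitochondrial UMIs were kept, as in the study's methods, and 922 LFD and 658 HFD cells were removed as likely doublets by their Scrublet score (scanpy 1.11.5), 9.03% and 7.71% of cells. Libraries were integrated and clustered in Seurat 5.3.0 (R 4.3.3, 30 components, resolution 0.3) on 1972 of 2000 variable genes, the 39 genes and related lists left out. A cluster was named when at least 3 markers and 50% of a list were present. Where a further list came within 20 percentage points, the name with at least 2 more markers among the top 10 genes was taken (the mural-like cluster also held all endothelial markers), and otherwise the cluster was called unresolved stromal or left unnamed. A stromal cluster with at least 80% of the cycle markers was called cycling stromal. This naming rule was settled after the clusters were seen. The 39 genes and all lists were chosen with earlier results of these data known.

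UMIs were summed per type and library (Python 3.11.15, numpy 2.4.6, scipy 1.17.1). Intervals were exact at the 95% level, Poisson for CPM, Clopper-Pearson for shares and conditional binomial for ratios, and the ratio step was tested on simulated data. Genes needed 20 counts over the groups compared. With 1 library per diet no test was made. All 39 genes were named by role, and at most 3 genes at each end of the other lists. Alternatives changed the cell filter, doublets, resolution, integration, cell naming, scaling, weighting of cells, count minimum and fold limit. Leaving out cycling plasma cell-like cells, or cells of other types with at least 2% immunoglobulin UMIs, was added after seeing the data, as were the diet ratios without immunoglobulin genes by cycle state.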

Additional observations from a re-analysis of the deposited data

Results flagged for a closer look

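Between cell types, 3 genes were past 1.5-fold higher in HFD in 1 type and past 1.5-fold lower in another. With 1 library per diet the differences were not tested. The Creld2 ratio was 1.64 in T/ILC2-like cells and 0.628 in mesothelial-like cells, 2.61 times apart. The Mzb1 ratio was 26.2 in T/ILC2-like and 0.479 in APC-like cells, 54.7 times apart, and in both types most of its counts in the library with the higher level lay in 3 cells. The Ddit3 ratio was 1.77 in endothelial-like and 0.642 in plasma cell-like cells, 2.75 times apart, on 66 and 76 counts in the former. Without cells holding at least 2% immunoglobulin UMIs, Creld2 in T/ILC2-like cells was at 35.4 CPM in LFD and 20.9 in HFD.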

How the results depend on the processing

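With 1 library per diet no replicate could be left out, so counting error is the only error measured, and depth limits neutrophil-like and mural-like cells most. Genes higher in plasma cell-like cells numbered 18 to 30 against APC-like, 18 to 34 against mesothelial-like or unresolved stromal and 30 to 35 against B-like cells over the alternatives run. Merging the libraries without integration gave no value for unresolved stromal cells, of which 2824 of 2988 in LFD went to the APC-like and 1110 of 1264 in HFD to the mesothelial-like class, so values of both classes without integration compare different cells in each diet, and the mean of per-cell values has no interval. With doublets kept, the plasma cell-like class also held a cluster of 178 LFD and 138 HFD cells, best matched by mesothelial markers (90% of that list). Its values therefore include mixed cells. The lower fold limit is the one tried in place of 1.5-fold between diets. Where no reason is given, the cause was not tested.

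Genes lower in plasma cell-like than in APC-like cells numbered 1 in place of 0 with a 1.5-fold limit, a stricter cell filter (2000 UMIs, 5% mitochondrial), the mean of per-cell values or cells with immunoglobulin RNA left out. The share of UMIs in the 39 genes in plasma cell-like cells of LFD and HFD was 3.51% and 3.40% with cells named one by one, 2.74% and 3.19% with doublets kept, 4.91% and 5.26% without immunoglobulin genes, and 3.59% and 3.47% as the mean of per-cell values, and without cycling cells it was 3.75% in LFD. In APC-like cells it was 1.09% and 1.06% with cells named one by one, 1.20% and 1.11% with doublets kept, 1.09% and 1.02% as the mean of per-cell values, 1.05% and 1.02% without integration, and 1.20% in LFD with the stricter filter.

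In plasma cell-like cells, genes higher in HFD numbered 5 with doublets kept, 3 without immunoglobulin genes, 5 with the lower fold limit and 1 with median-ratio scaling, in place of 0. Genes lower numbered 0 with cells named one by one, doublets kept, immunoglobulin genes left out, median-ratio scaling or the stricter filter, 5 with the lower fold limit and 3 without cycling cells, in place of 1. In APC-like cells, genes higher numbered 1 with cells named one by one, 2 with the lower fold limit and 3 without integration, in place of 0, and genes lower 1, 7 and 0 under the same settings, 5 with median-ratio scaling and 7 with the stricter filter, in place of 3. In mesothelial-like cells, genes higher numbered 2 with cells named one by one or the lower fold limit and 0 with the stricter filter, in place of 1, and genes lower 4 with the lower fold limit, in place of 2. In unresolved stromal cells, genes higher numbered 4 with the lower fold limit, in place of 1, and genes lower 4 with that limit and 1 with cells named one by one, resolution 0.6, doublets kept, median-ratio scaling or the stricter filter, in place of 0. Genes lower in cycling cells numbered 1 with at least 2 cycle genes and 2 without immunoglobulin genes, in place of 0. The Mzb1 ratio of HFD to LFD in APC-like cells turned from 0.479 to 1.62 with cells named one by one, 1.39 with cells with immunoglobulin RNA left out and 2.43 without integration.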
